A study of Mus musculus with 16 samples.

Results

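The 42 collagen chain genes of the mouse lung were followed across 16 RNA-seq libraries of tumour-bearing lungs that had received 0, 4 or 8 Gy of radiotherapy. They are the protein-coding rows of the expression table whose symbol reads Col, a number, the letter a and a number, and they make up 42 of the 30095 genes listed. Of these, 11 were classed as fibrillar chains, which build banded fibrils, 8 as basement membrane chains (Col4a1 to Col4a6, Col15a1 and Col18a1), and 23 as minor collagens. All libraries came from C57BL/6 mice whose lungs carried HKP1, a mouse lung adenocarcinoma line. The mice received either an IgG control or anti-PD-1, an antibody that blocks an inhibitory receptor of T cells, and whole lungs were taken 24 to 48 h after radiotherapy. With IgG there were 3 libraries at 0 Gy, 2 at 4 Gy and 3 at 8 Gy, and with anti-PD-1 there were 2, 3 and 3. Each library was pooled from 3 to 4 mice, every group carried the tumour and no tumour-free lung was analysed here, so lung and tumour RNA were measured together.

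Collagens are trimers of chains that wind around each other in the endoplasmic reticulum, are secreted, trimmed and crosslinked, and then form the scaffold of the tissue. Fibrillar collagens give the lung its tensile strength and are made mostly by fibroblasts, whereas type IV collagen is the network on which epithelium and endothelium rest. In the alveolus the network of the Col4a1 and Col4a2 chains is joined by a second type IV network of the Col4a3, Col4a4 and Col4a5 chains, which is prominent in lung alveoli and the kidney glomerulus. Minor collagens decorate fibrils (the FACIT group), form beaded filaments (type VI), anchor epithelium or span cell membranes.

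Levels are in CPM, read counts scaled to the size of the library, and 1 read was worth 0.0155 to 0.0418 CPM, so 3 reads were at most 0.125 CPM in any library. Mitochondrially encoded genes took 1.01 to 3.73% of the CPM of all genes listed at 0 Gy, 4.14 to 6.54% at 4 Gy and 1.69 to 8.23% at 8 Gy. At 4 Gy, replicates 2 and 3 of anti-PD-1 stood apart, with 6086 and 5315 genes without reads against 2273 to 3851 in the other libraries. They were also among the least deeply read, with 1 read worth 0.0418 and 0.0319 CPM against 0.0155 to 0.0334 CPM in the others. The part of depth in the genes without reads was not tested. The labels number the libraries 13 to 17 at 0 Gy, 26 to 30 at 4 Gy and 31 to 36 at 8 Gy. The numbers of 4 and 8 Gy thus follow on from each other, and those of 0 Gy are set apart by a gap. What the numbers stand for is not said, so dose and the order of handling cannot be told apart. Nothing in the labels says that the pools of a group were treated apart, and p-values measure the spread between pools. The lung markers of alveolar type 1 cells were present in every library, at a summed 122 to 1264 CPM over 10 genes.

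The type IV genes lie in head-to-head pairs, and their starts are shown because these are the basement membrane chains described below. On GRCm38, Col4a4 (chr1:82448423-82586849, minus strand) and Col4a3 (chr1:82586921-82722059, plus strand) start 71 bases apart. Col4a1 (chr8:11198423-11312826, minus strand) and Col4a2 (chr8:11312805-11449287, plus strand) overlap by 22 bases of their first exons. Col4a6 (chrX:141165403-141474076, minus strand) and Col4a5 (chrX:141475385-141689234, plus strand) are 1308 bases apart. The stretches are printed from RefSeq promoter windows of GRCm38.p6 5′ to 3′, as what lies between or at the starts of the first pairs and, for the pair on X, as a separate stretch before each start, with capitals marking a match on either strand to a CCAAT box or a GC box.
Col4a3 and Col4a4, all 71 bases between the start sites (chr1:82586850-82586920, minus strand): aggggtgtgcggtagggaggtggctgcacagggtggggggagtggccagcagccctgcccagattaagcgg
Col4a1 and Col4a2, the 22 bases in both first exons (chr8:11312805-11312826, plus strand): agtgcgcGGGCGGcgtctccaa
Col4a5, 216 bases upstream of its start (chrX:141475169-141475384, plus strand): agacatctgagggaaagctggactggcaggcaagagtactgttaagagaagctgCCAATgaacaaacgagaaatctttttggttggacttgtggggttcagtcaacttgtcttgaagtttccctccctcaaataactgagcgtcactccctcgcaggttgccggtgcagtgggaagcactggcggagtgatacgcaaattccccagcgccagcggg
Col4a6, 250 bases upstream of its start (chrX:141474077-141474326, minus strand): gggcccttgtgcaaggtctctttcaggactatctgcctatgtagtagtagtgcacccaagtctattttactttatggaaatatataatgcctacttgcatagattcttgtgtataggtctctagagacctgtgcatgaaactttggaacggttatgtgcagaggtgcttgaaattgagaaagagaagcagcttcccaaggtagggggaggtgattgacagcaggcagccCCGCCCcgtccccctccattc
The stretch between Col4a3 and Col4a4 had a GC content of 69.0% and held none of the 3 motifs searched on both strands. The first motif is the CCAAT box, spelled by its name. The second is the GC box, written GGGCGG. The last is the TATA box, searched as TATAAA. Over the family, RefSeq windows of 300 bases were found for 33 members, 35 windows in all. The GC box was in 23 of these 35 windows against 35.7% of all 32851 windows, the CCAAT box in 12 of 35 against 37.4%, and the TATA box in 5 of 35 against 13.6%.

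Collagen RNA was concentrated in few genes. The 4 most abundant members held 50% of collagen CPM and the 8 most abundant held 85.1%. Per kilobase of the longest coding transcript, the mean level over the 16 libraries was highest for Col6a1, a chain of the type VI beaded filament, at 124 CPM per kb. Next came Col3a1 (78.0 CPM per kb), Col1a2 (73.6), Col6a2 (73.3), Col4a1 (61.8), Col18a1 (60.5), Col1a1 (50.8) and Col4a2 (37.8). Below these 8 genes there was a step to Col5a2 at 17.1 CPM per kb and Col27a1 at 14.4 CPM per kb. The order among Col3a1, Col1a2 and Col6a2 is not firm, since their spread between libraries was wider than the gaps between their means. Col5a2, the second chain of type V collagen, which starts and limits fibrils, was above its partner Col5a1 at 9.34 CPM per kb. Type IV chains 3, 4, 5 and 6 were all below 4 CPM per kb.

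**Figure D1:**
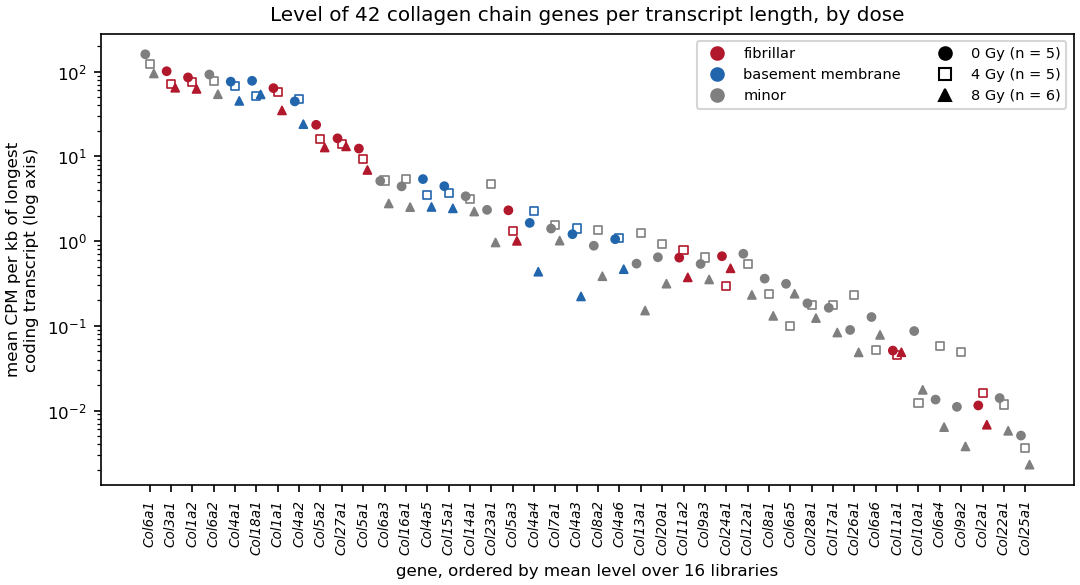
Mean level of each of the 42 collagen chain genes in CPM per kb of its longest coding transcript (log axis) at 0 Gy (circles, n = 5), 4 Gy (open squares, n = 5) and 8 Gy (triangles, n = 6), coloured by class and ordered by the mean over all libraries. The first 8 genes stand above the rest, and the 8 Gy triangle is below the 0 Gy circle for the genes tested.

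Collagen genes together took a smaller share of the library at 8 Gy. The share of library CPM was 0.341 to 0.569% at 0 Gy (median 0.404%, n = 5), 0.280 to 0.419% at 4 Gy (median 0.367%, n = 5) and 0.222 to 0.358% at 8 Gy (median 0.230%, n = 6). This share is of the whole library, of which the genes listed held only a part. They summed to 866773 to 905057 CPM at 0 Gy and 907531 to 915009 CPM at 8 Gy. The 0 and 4 Gy ranges overlapped, and of the 8 Gy libraries only anti-PD-1 replicate 3 reached the 0 Gy range. At 8 Gy, anti-PD-1 replicates 2 and 3 lay above the other 4 libraries. The makeup of the collagen RNA moved little. Fibrillar chains made up 41.2% ± 4.31 of collagen CPM at 0 Gy (SD, n = 5) and 43.2% ± 3.68 at 8 Gy (SD, n = 6). Basement membrane chains made up 30.6% ± 5.30 and 29.8% ± 2.87, and minor chains 28.2% ± 3.10 and 27% ± 1.55. Each of these differences was smaller than the SD between libraries.

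**Figure D2:**
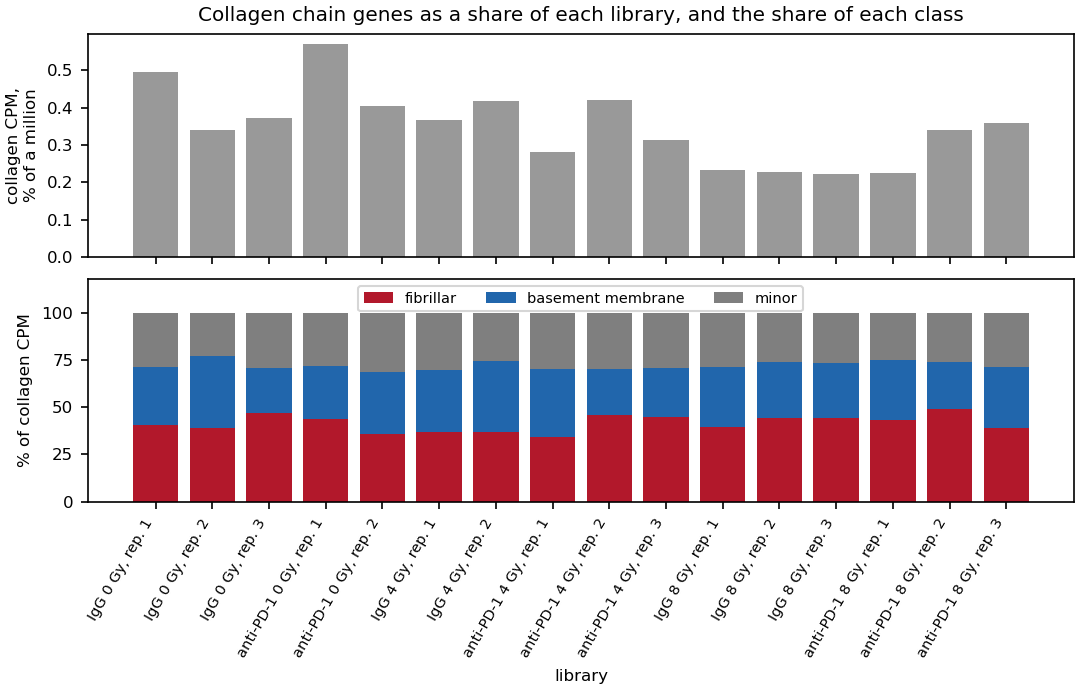
Upper panel, summed CPM of the 42 collagen genes as a percent of library CPM in each of the 16 libraries; lower panel, the percent of that sum in fibrillar, basement membrane and minor chains. The 8 Gy bars sit between 0.222 and 0.358%, while the 3 class shares stay at similar heights across the doses.

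Against 0 Gy, 21 of the 34 collagen genes that could be tested were lower at 8 Gy and 0 were higher, in a fit where 16.1% of all 17546 genes tested were lower and 4.68% were higher. The fit was limma on log2(CPM + 0.5), a scale that understates the change of genes with low values, with the difference taken within each antibody and averaged and with Benjamini-Hochberg adjustment over all genes. Where a gene name is followed by a value ± another, these are its log2 fold change and SE. All 34 estimates were negative, with a median log2 fold change of -0.81, beside a median of -0.09 over all genes. Of the basement membrane chains 7 of 8 fell (median -1.02), of the fibrillar chains 5 of 9 (median -0.66) and of the minor chains 9 of 17 (median -0.80). In 5 members every 8 Gy library was below every 0 Gy library (Col5a1, Col5a3, Col6a3, Col8a1 and Col12a1), which was so for 4.91% of all genes. Genes were tested if they reached 1 CPM in 2 or more libraries. Col8a1 and Col13a1 did not exceed 0.946 and 0.944 CPM at 8 Gy. They thus passed this filter only through the other doses, and their falls are partly fixed by it. The tissue was whole lung, so fewer cells of a type and less RNA per cell cannot be told apart. The count ran from 18 to 22 under other scalings, filters, pseudocounts and models and from 16 to 25 when any 1 library was left out, and each of the 34 genes kept its sign in all alternatives in which it was tested (25, or 24 for Col28a1).

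**Figure D3:**
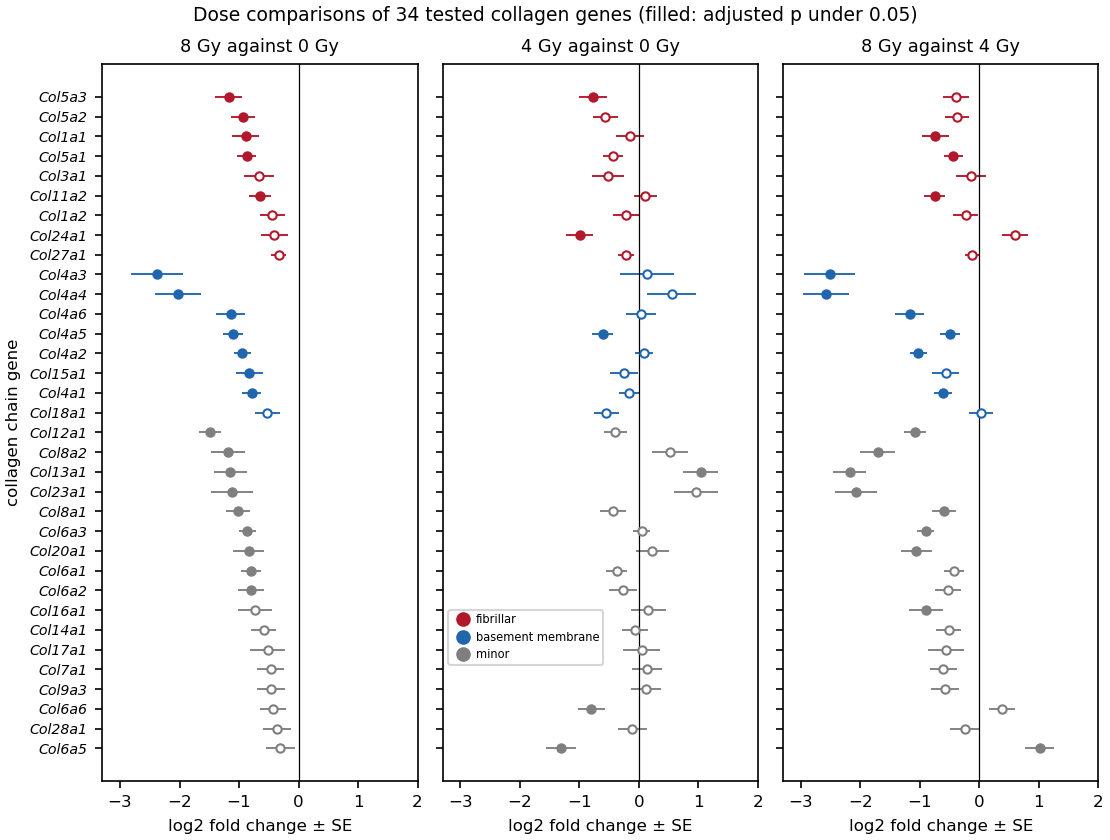
Log2 fold change ± SE of the 34 tested collagen genes for 8 Gy against 0 Gy, 4 Gy against 0 Gy and 8 Gy against 4 Gy, with filled points where the limma adjusted p was under 0.05. All 34 points lie left of 0 in the first panel, and the type IV chains Col4a3 and Col4a4 lie farthest left in the first and last panels.

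Among fibrillar chains, Col1a1 was called as lower and its partner Col1a2 was not. A test of the ratio of these chains, given below, did not pass after adjustment, so unequal falls were not shown. Col1a1, the major chain of type I collagen, was at 486, 306 and 335 CPM with IgG and 503 and 265 CPM with anti-PD-1 at 0 Gy. It was at 306 and 369 CPM with IgG and 223, 443 and 346 CPM with anti-PD-1 at 4 Gy. At 8 Gy it was at 179, 165 and 148 CPM with IgG and 157, 321 and 271 CPM with anti-PD-1. The 3 IgG libraries and anti-PD-1 replicate 1 at 8 Gy were below every 0 Gy library, whereas anti-PD-1 replicates 2 and 3 lay within the 0 Gy range. Col1a1 at 8 Gy against 0 Gy had a log2 fold change of -0.89 (SE 0.23, adjusted p = 0.0152 by limma), and the call was lost without 0 Gy anti-PD-1 replicate 1 (adjusted p = 0.0874 with limma). Col1a2, the other type I chain, had a log2 fold change of -0.44 (SE 0.21, adjusted p = 0.15 by limma), and Col3a1, which forms type III collagen, had -0.66 (SE 0.25, adjusted p = 0.0765 by limma). Neither of these passed, although Col3a1 did without 0 Gy IgG replicate 2 or without 4 Gy anti-PD-1 replicate 1 (lowest adjusted p = 0.0239 with limma).

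Type V chains, which join type I fibrils and set their diameter, gave the steadier fibrillar result. Col5a1 was at 114, 96.1 and 84.8 CPM with IgG and 135 and 90.3 CPM with anti-PD-1 at 0 Gy. Col5a1 was lower at 8 Gy, at 50.6, 49.99 and 42.7 CPM with IgG and 48.4, 73.3 and 83.5 CPM with anti-PD-1. Its 8 Gy libraries did not overlap those at 0 Gy, with 83.5 CPM as the highest 8 Gy value and 84.8 CPM as the lowest 0 Gy value. Its fold change on the log2 scale was -0.87 (SE 0.16, adjusted p = 0.0027 by limma), and the gene was called in all 25 alternatives tried. Col5a3, a less abundant type V chain, had a log2 fold change of -1.17 (SE 0.22, adjusted p = 0.00309 by limma) and ranged from 11.0 to 21.1 CPM at 0 Gy and from 4.12 to 9.48 CPM at 8 Gy. Col5a2 fell too, with a log2 fold change of -0.94 (SE 0.20, adjusted p = 0.00585 by limma). Col11a2, a chain of type XI collagen best known from cartilage, fell with -0.65 (SE 0.18, adjusted p = 0.0241 by limma). Col24a1 (-0.40 ± 0.22) and Col27a1 (-0.34 ± 0.12), the more divergent fibrillar chains, did not pass, at adjusted p = 0.213 and 0.0677 with limma.

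In the basement membrane class every type IV gene fell at 8 Gy. Col4a1 and Col4a2 form the network found in nearly all basement membranes. Col4a2 was at 316, 263 and 223 CPM with IgG and 325 and 310.3 CPM with anti-PD-1 at 0 Gy. It was at 277 and 405 CPM with IgG and 287, 297 and 266 CPM with anti-PD-1 at 4 Gy. At 8 Gy the gene was at 133, 128 and 126 CPM with IgG and 132, 179 and 231 CPM with anti-PD-1. All 8 Gy libraries were below all 4 Gy libraries, and only 8 Gy anti-PD-1 replicate 3 reached the 0 Gy range. For Col4a2 the log2 fold change against 0 Gy was -0.94 (SE 0.14, adjusted p = 0.000937 by limma), and that of Col4a1 was -0.79 (SE 0.16, adjusted p = 0.00382 by limma). Col4a1 ranged from 346 to 596 CPM at 0 Gy and from 247 to 434 CPM at 8 Gy, and the doses overlapped through 8 Gy anti-PD-1 replicate 3.

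Col4a3 and Col4a4, chains of the second alveolar network, had the largest falls of the 34 genes. Col4a3 was at 5.86, 4.68 and 6.03 CPM with IgG and 9.95 and 25.1 CPM with anti-PD-1 at 0 Gy. It was at 18 and 22.5 CPM with IgG and 13.2, 2.62 and 3.99 CPM with anti-PD-1 at 4 Gy. At 8 Gy it was at 0.439, 1.11 and 0.841 CPM with IgG and 0.64, 5.27 and 3.1 CPM with anti-PD-1. Of the 6 libraries at 8 Gy, 5 were below every 0 Gy library, and 8 Gy anti-PD-1 replicate 2 reached the 0 Gy range. Against 0 Gy the log2 fold change of Col4a3 was -2.38 (SE 0.43, adjusted p = 0.00245 by limma).

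Col4a4 was at 11.4, 5.16 and 18.7 CPM with IgG and 14.7 and 32.9 CPM with anti-PD-1 at 0 Gy. Its 4 Gy values were 27.7 and 25 CPM with IgG and 30.2, 12.3 and 18.7 CPM with anti-PD-1. At 8 Gy Col4a4 was at 1.32, 2.08 and 2.3 CPM with IgG and 2.47, 11.9 and 6.32 CPM with anti-PD-1. The same library, anti-PD-1 replicate 2, was the highest at 8 Gy for Col4a3 and Col4a4, and the IgG libraries of that dose were between 0.439 and 2.30 CPM for this pair. The log2 fold change of Col4a4 was -2.02 (SE 0.39, adjusted p = 0.00329 by limma), and both genes were called in all 25 alternatives. The exons of Col4a3 overlap those of C430014B12Rik on the other strand, a gene that did not exceed 0.334 CPM in any library.

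Col4a5, also a chain of the second network, was at 36.6, 22.7 and 29.5 CPM with IgG and 50.04 and 37.5 CPM with anti-PD-1 at 0 Gy. It was at 12.6, 14 and 15.3 CPM with IgG and 15.8, 18.1 and 23.3 CPM with anti-PD-1 at 8 Gy, where it overlapped the 0 Gy libraries through anti-PD-1 replicate 3. Its log2 fold change was -1.11 (SE 0.17, adjusted p = 0.000937 by limma). Col4a6, its X-linked neighbour and partner, had -1.14 (SE 0.24, adjusted p = 0.006 by limma), with 3.22 to 9.39 CPM at 0 Gy and 1.38 to 5.70 CPM at 8 Gy. The multiplexin Col15a1, found in the zone under basement membranes, fell with -0.83 (SE 0.22, adjusted p = 0.0198 by limma), a call lost without 0 Gy IgG replicate 1 or 0 Gy anti-PD-1 replicate 1 and in the additive model (highest adjusted p = 0.0811 with limma). Col18a1, the precursor of endostatin, was the only basement membrane chain that did not pass, with -0.52 (SE 0.20, adjusted p = 0.0844 by limma) and 227 to 433 CPM at 8 Gy against 245 to 557 CPM at 0 Gy. It passed when 0 Gy IgG replicate 3 or 8 Gy anti-PD-1 replicate 3 was left out (lowest adjusted p = 0.00807 with limma).

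Minor collagens fell in the more abundant type VI chains and in Col12a1. Col12a1, a FACIT collagen that coats type I fibrils, was at 7.62, 8.32 and 8.12 CPM with IgG and 8.58 and 8.15 CPM with anti-PD-1 at 0 Gy. It was at 6.41 and 9.32 CPM with IgG and 5.96, 5.52 and 3.32 CPM with anti-PD-1 at 4 Gy. At 8 Gy the gene was at 2.2, 2.31 and 3 CPM with IgG and 1.83, 3.16 and 3.49 CPM with anti-PD-1. No 8 Gy library reached the 0 Gy range, and the 5 libraries at 0 Gy lay within 1 CPM of each other. The log2 fold change of -1.48 (SE 0.19, adjusted p = 0.000344 by limma) had the lowest p of the 34 genes in this comparison.

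Col6a3, the long chain of type VI collagen, was at 64.7, 45.1 and 52.8 CPM with IgG and 50.7 and 45.6 CPM with anti-PD-1 at 0 Gy. It was at 23.6, 28.2 and 22.4 CPM with IgG and 25.6, 34.8 and 34 CPM with anti-PD-1 at 8 Gy, below all 0 Gy libraries. Its log2 fold change was -0.86 (SE 0.14, adjusted p = 0.00139 by limma). Col6a1 fell with -0.80 (SE 0.17, adjusted p = 0.00577 by limma) and Col6a2 with -0.80 (SE 0.22, adjusted p = 0.0218 by limma), both with overlap, since 8 Gy values of Col6a1 ran from 303 to 570.3 CPM against 436 to 867 CPM at 0 Gy. The remaining called members were the network-forming chains Col8a1 (-1.02 ± 0.20) and Col8a2 (-1.19 ± 0.29), the membrane-spanning Col13a1 (-1.15 ± 0.27) and Col23a1 (-1.12 ± 0.35), and the FACIT chain Col20a1 (-0.84 ± 0.26). Another 8 minor chains did not pass, among them the anchoring fibril chain Col7a1 (-0.47, SE 0.23, adjusted p = 0.169 by limma) and the FACIT chain Col14a1 (-0.58, SE 0.21, adjusted p = 0.0635 by limma).

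Of the 21 calls at 8 Gy, 14 held in all 25 alternatives and 7 did not. Besides Col1a1 and Col15a1, these were Col6a2 (lost without 0 Gy IgG replicate 1, 0 Gy anti-PD-1 replicate 1 or 8 Gy anti-PD-1 replicate 1) and Col13a1 (lost without 0 Gy anti-PD-1 replicate 2). Col11a2, Col20a1 and Col23a1 were lost with quantile normalization and without any 1 of several libraries of either dose, with highest adjusted p-values of 0.147, 0.145 and 0.151 with limma. Among genes not called, Col14a1, Col16a1 and Col9a3 passed without 0 Gy IgG replicate 2, and Col27a1 without 0 Gy IgG replicate 3 or 8 Gy anti-PD-1 replicate 3.

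From 4 to 8 Gy all 6 type IV chains fell, as did 3 fibrillar and 8 minor chains. At 8 Gy, 17 of 34 members were lower and 1 was higher than at 4 Gy, beside 17.2% lower and 17% higher over all genes. Basement membrane chains fell in 6 of 8 (median log2 fold change -0.82), fibrillar chains in 3 of 9 (median -0.38) and minor chains in 8 of 17 (median -0.59), beside a median of 0.06 over all genes. The 5 members Col4a2, Col4a4, Col8a2, Col13a1 and Col23a1 were lower in every 8 Gy library than in every 4 Gy library, as were 6.6% of all genes. Here too, Col8a1 and Col13a1 had passed the filter only through doses other than 8 Gy. Col4a4 had a log2 fold change of -2.57 (SE 0.39, adjusted p = 0.000653 by limma), Col4a3 of -2.52 (SE 0.43, adjusted p = 0.00125 by limma) and Col4a2 of -1.03 (SE 0.14, adjusted p = 0.000435 by limma). Of the 18 members called, 10 were called in all 25 alternatives and 8 were not. The 3 fibrillar calls, Col1a1, Col5a1 and Col11a2, held in 18, 10 and 24 alternatives. Col4a1 and Col4a5 held in 24 and 14, and the minor chains Col8a1, Col16a1 and Col20a1 in 14, 18 and 23. The count of 18 called members ran from 12 to 23 when any 1 library was left out, was 12 without both outlying libraries and was 25 when only the 4 and 8 Gy groups were fitted.

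The membrane or network chains Col13a1, Col23a1 and Col8a2 fell from 4 to 8 Gy. Col13a1, a transmembrane collagen of cell junctions, was at 1.13, 0.667 and 3.1 CPM with IgG and 1.4 and 2.26 CPM with anti-PD-1 at 0 Gy. It was at 2.64 and 4.61 CPM with IgG and 5, 4.01 and 3.32 CPM with anti-PD-1 at 4 Gy. At 8 Gy it was at 0.172, 0.312 and 0.368 CPM with IgG and 0.328, 0.944 and 0.745 CPM with anti-PD-1. Every 4 Gy library was above every 8 Gy library, while the 0 Gy libraries overlapped both. Its log2 fold change was -2.18 (SE 0.27, adjusted p = 0.000271 by limma) for 8 Gy against 4 Gy.

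Col23a1, another transmembrane chain, was at 18.1 and 14.1 CPM with IgG and 33.4, 29.7 and 37.7 CPM with anti-PD-1 at 4 Gy. At 8 Gy it was at 2.87, 5.16 and 4.5 CPM with IgG and 4.54, 9.89 and 5.72 CPM with anti-PD-1, and its 0 Gy values ranged from 3.96 to 23.2 CPM. The log2 fold change from 4 to 8 Gy was -2.08 (SE 0.35, adjusted p = 0.00112 by limma). Col8a2, a chain of the hexagonal network of Descemet's membrane that is also made around vessels, fell from 3.91 to 8.12 CPM at 4 Gy to 0.719 to 3.85 CPM at 8 Gy, with -1.71 (SE 0.29, adjusted p = 0.00113 by limma). Col6a5, an alternative type VI chain, was the only member higher at 8 Gy than at 4 Gy, with 1.01 (SE 0.24, adjusted p = 0.0065 by limma).

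Against 0 Gy, 4 Gy gave few calls, and they did not hold in every setting. Of the members 1 was higher and 5 were lower, beside 5.33% higher and 12.2% lower over all genes. Over all genes, 3076 of 17546 were called, and 130 of 17348 when only the 0 and 4 Gy groups were fitted. Calls over all genes also became few without both outlying libraries or without 4 Gy IgG replicate 2. Col6a5 was at 2.81, 3.84 and 2.04 CPM with IgG and 3.99 and 1.86 CPM with anti-PD-1 at 0 Gy. At 4 Gy it was at 0.825 and 0.434 CPM with IgG and 0.864, 1.59 and 0.862 CPM with anti-PD-1, and at 8 Gy it was at 2.85, 2.1 and 1.69 CPM with IgG and 1.47, 2.99 and 2.24 CPM with anti-PD-1. The 4 Gy libraries did not overlap those at 0 Gy, and the log2 fold change was -1.31 (SE 0.25, adjusted p = 0.0112 by limma). Col24a1 was likewise below every 0 Gy library at 4 Gy (1.47 to 2.72 against 2.76 to 6.31 CPM), with -0.998 (SE 0.23, adjusted p = 0.019 by limma). Such separation downward was found for 4.23% of all genes.

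The other calls at 4 Gy were Col6a6 (-0.80 ± 0.23), Col4a5 (-0.61 ± 0.18) and Col5a3 (-0.78 ± 0.23), all lower, and Col13a1 (1.03, SE 0.29, adjusted p = 0.0306 by limma), higher. Col6a6 did not exceed 0.878 CPM at 4 Gy, so it passed the filter only through the other doses. None of the 6 remained when only the 0 and 4 Gy groups were fitted, when both outlying 4 Gy anti-PD-1 libraries were left out, or without 4 Gy IgG replicate 2. It fell to 2 without 0 Gy IgG replicate 1, 3 without 0 Gy IgG replicate 2, 1 without 0 Gy anti-PD-1 replicate 1, 3 without 0 Gy anti-PD-1 replicate 2 and 2 without 4 Gy anti-PD-1 replicate 3. Type I and type III chains were not called at 4 Gy, with log2 fold changes of -0.15 for Col1a1, -0.21 for Col1a2 and -0.52 for Col3a1, and neither were Col4a1 (-0.17) and Col4a2 (0.09).

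**Figure D4:**
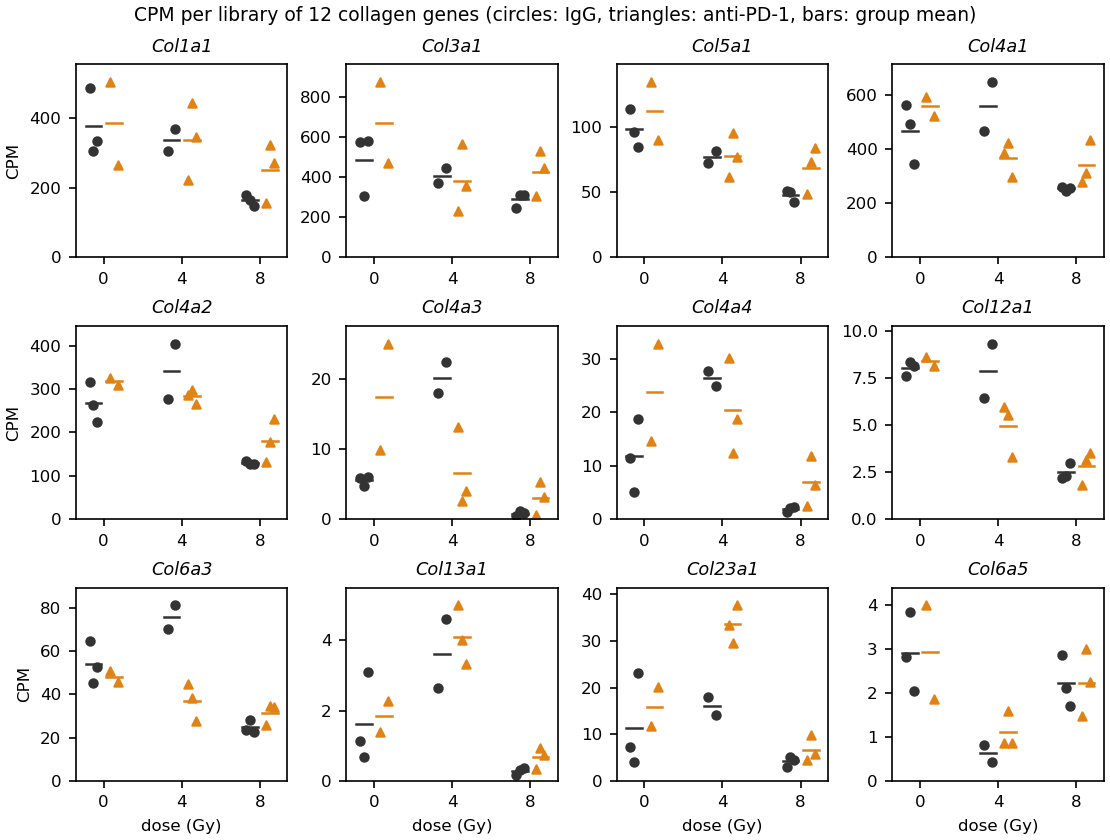
CPM of 12 collagen chain genes in each library by dose in Gy, with circles for IgG, triangles for anti-PD-1 and bars for group means. Col12a1 and Col6a3 are low in every 8 Gy library, Col13a1 and Col23a1 are lower in all 8 Gy libraries than in any 4 Gy library, and the triangles of anti-PD-1 replicates 2 and 3 lie high among the 8 Gy points for Col1a1 and Col4a3.

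Taken by antibody, the fall at 8 Gy was called more often with IgG, but no difference between the antibodies was called. With IgG, 16 of 34 members were lower at 8 Gy than at 0 Gy and 0 were higher, beside 9.12% lower and 1.44% higher over all genes. With anti-PD-1, 3 of 34 were lower (Col12a1, Col4a2 and Col4a5) and 0 were higher, beside 1.88% lower and 0.957% higher. The interaction of dose and antibody for 8 Gy against 0 Gy was called in 0 of 34 members, with 0 at an unadjusted p under 0.05, and in 0.0% of all genes in either direction. Col12a1 fell alike in size, with -1.51 (SE 0.25, adjusted p = 0.00377 by limma) for IgG and -1.45 (SE 0.28, adjusted p = 0.0156 by limma) for anti-PD-1. For Col4a3 the values were -2.24 (SE 0.58, adjusted p = 0.0268 by limma) and -2.51 (SE 0.64, adjusted p = 0.0522 by limma). Both comparisons rest on 2 or 3 libraries a group. The IgG count became 3 without 0 Gy IgG replicate 1 and 8, 4 and 4 without 8 Gy IgG replicates 1, 2 and 3. The anti-PD-1 count became 0 without either 0 Gy anti-PD-1 library or without 8 Gy anti-PD-1 replicate 1, and 5 without 8 Gy anti-PD-1 replicate 3, 0 Gy IgG replicate 2 or 0 Gy IgG replicate 3.

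The 6 libraries at 8 Gy were not alike in collagen. In 24 of the 34 members tested (70.6%) 8 Gy anti-PD-1 replicates 2 and 3 were both above the other 4 libraries, beside 24.1% of all genes. These libraries were singled out after their values were seen, and the share is a description. Their mitochondrial shares were 3.91 and 1.69%, against 5.54% in 8 Gy anti-PD-1 replicate 1 and 3.62, 7.54 and 8.23% in the 8 Gy IgG libraries, so 1 of the other 4 libraries was below replicate 2. The part of this in the collagen values was not tested.

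Between 8 and 4 Gy, 12 members were lower and 1 was higher with IgG (beside 5.94% and 1.64% of all genes), and 11 were lower and 0 higher with anti-PD-1 (beside 17.5% and 24.4%). With IgG the basement membrane chains were called in 7 of 8. The IgG count became 5 and 2 without 4 Gy IgG replicates 1 and 2 and 8 without 8 Gy IgG replicate 1 or 2. The anti-PD-1 count became 6 without 4 Gy anti-PD-1 replicate 3, 4 without 8 Gy anti-PD-1 replicate 1 and 0 without both outlying libraries. The interaction for 8 Gy against 4 Gy was called in 0 of 34 members and in 0.0% of all genes, with 11 members at an unadjusted p under 0.05.

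Between 4 and 0 Gy, 0 members were called with IgG (7 at an unadjusted p under 0.05), beside 0.0057% of all genes in either direction. With anti-PD-1, 8 were lower and 0 higher, beside 25.9% lower and 13.4% higher over all genes. This count became 0 without both outlying libraries, which belong to that group. Leaving out 1 library gave 1 without 0 Gy anti-PD-1 replicate 1 or 4 Gy anti-PD-1 replicate 3, 5 without 0 Gy anti-PD-1 replicate 2 and 13 without 0 Gy IgG replicate 2. Col4a3 was the only member whose response to 4 Gy was called as different between the antibodies, at a log2 difference of -3.29 (SE 0.91, adjusted p = 0.0448 by limma), beside 5.32% of all genes lower and 3.76% higher in this interaction. With IgG its 4 Gy values of 18 and 22.5 CPM were above the 0 Gy values of 5.86, 4.68 and 6.03 CPM. With anti-PD-1 the 4 Gy values of 13.2, 2.62 and 3.99 CPM overlapped the 0 Gy values of 9.95 and 25.1 CPM, and replicates 2 and 3 were the lowest. The call held in 5 of 23 alternatives, and without both outlying libraries the difference was -2.04 (limma adjusted p = 0.348).

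The antibody itself gave no call across doses. For anti-PD-1 against IgG 0 of 34 members were called with limma, beside 0.165% of all genes higher and 0.0684% lower, and 7 members were at an unadjusted p under 0.05, 6 of them higher. The count became 3, all higher, without 0 Gy IgG replicate 3, where 1102 of all 17494 genes tested were higher and 225 lower. At 0 Gy and at 8 Gy 0 members were called, beside 0.274% and 0.0057% of all genes in either direction, with 2 and 7 members at an unadjusted p under 0.05. At 4 Gy Col6a3 (-1.05 ± 0.21) and Col15a1 (-1.17 ± 0.33) were lower, and Col11a2 (0.94 ± 0.27) and Col20a1 (1.34 ± 0.39) were higher, beside 8.57% lower and 6.9% higher over all genes. These 4 calls became 0 without both outlying libraries and without any 1 of 4 Gy IgG replicates 1 and 2 or 4 Gy anti-PD-1 replicates 2 and 3. They became 2 without 0 Gy IgG replicate 1, 7 without 0 Gy IgG replicate 3, and 1 without 8 Gy IgG replicate 2 or 8 Gy anti-PD-1 replicate 2.

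Chains that assemble together had steadier ratios in some pairs than in others. Over 16 libraries the log2 ratio of Col6a1 to Col6a2 had an SD of 0.151, the smallest of 253 pairs among the 23 members at 5 CPM or more on average. Col3a1 and Col5a2, neighbours on chromosome 1 that end about opposite each other, had the second smallest at 0.192. Col4a1 and Col4a2 were 8th (0.240) and Col1a1 and Col1a2 were 29th (0.306). Col4a3 and Col4a4, which share the 71-base stretch printed above, were 159th (0.585), and Col4a3 against Col4a1 was 228th (1.2). The genes Col4a3 and Col4a4 had low means, 7.70 and 13.9 CPM. The SD of their log2 ratio was 0.55 at 0 Gy, 0.86 at 4 Gy, the dose of the outlying libraries, and 0.23 at 8 Gy. The part of level and of those libraries in the rank was not tested. Each of Col4a3 and Col4a4 still had its smallest SD with the other. The next smallest was 1.01 for Col4a3 (with Col12a1) and 0.720 for Col4a4 (with Col23a1). All pairs share the same libraries and depth, and these ranks are a description.

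Ratios between doses were tested for 7 pairs by an exact two-sided permutation test within antibody, with adjustment over the 21 tests. None of the 21 was under 0.05 after adjustment, and the lowest adjusted p was 0.0788, where the smallest unadjusted p the design allows is 0.005 (0.01 for 4 Gy against 0 Gy). The log2 ratio of Col4a1 to Col4a2 was 0.96 ± 0.10 at 8 Gy (SD, n = 6) and 0.51 ± 0.23 at 4 Gy (SD, n = 5), with an exact permutation p of 0.005. The ratio of Col1a1 to Col1a2 was -0.73 ± 0.28 at 8 Gy (SD, n = 6) and -0.23 ± 0.11 at 4 Gy (SD, n = 5), with an exact permutation p of 0.015. Between 8 and 0 Gy the Col1a1 to Col1a2 ratio differed by -0.45, with an exact permutation p of 0.02 (0.084 after adjustment). The ratio of Col4a3 to Col4a1 was -7.27 ± 0.86 at 8 Gy and -5.79 ± 0.89 at 0 Gy (SD, n = 6 and 5), with an exact permutation p of 0.015. For Col6a1 to Col6a2 the difference between 8 and 0 Gy was -0.0048 on the log2 scale, with an exact permutation p of 0.94.

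Genes that make, anchor, bind and degrade collagen were counted from lists chosen by function. Of 28 folding and crosslinking genes tested, 12 were lower and 1 was higher at 8 Gy than at 0 Gy (median log2 fold change -0.42), beside 16.1% lower and 4.68% higher over all genes. Bmp1, the protease that trims procollagen, had -1.26 (SE 0.15, adjusted p = 0.000313 by limma), Lox, which crosslinks fibrils, had -1.80 (SE 0.30, adjusted p = 0.00166 by limma), and the lysyl oxidase relative Loxl3 had -0.86 (SE 0.14, adjusted p = 0.00123 by limma). The prolyl hydroxylase subunit P4ha1 rose, with 0.42 (SE 0.12, adjusted p = 0.0194 by limma). Of 15 basement membrane partners 8 were lower and 0 higher (median -0.49), led by Agrn (-0.91 ± 0.15), Nid2 (-1.01 ± 0.17), which links laminin to type IV collagen, and the laminin chains Lama5 (-0.95 ± 0.16) and Lama2 (-1.42 ± 0.25). Of 17 degradation genes 6 were lower and 1 was higher: the collagen uptake receptor Mrc2 (-1.13 ± 0.21) and the protease Ctsk (-0.87 ± 0.19) fell, and the gelatinase Mmp9 rose (1.14, SE 0.38, adjusted p = 0.0464 by limma), the only higher call of this list, whose higher count was 0 with no filter. Of 9 receptors 2 were lower, the integrin chains Itga10 (-1.26 ± 0.19) and Itga1 (-0.79 ± 0.18), and 1 was higher, the inhibitory leukocyte receptor Lair1 (0.70 ± 0.20).

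At 8 Gy against 4 Gy the counts were 11 lower and 0 higher of 28 folding genes, 9 and 0 of 15 basement membrane partners, 7 and 0 of 17 degradation genes, and 1 and 1 of 9 receptors, beside 17.2% lower and 17% higher over all genes. Lama2 had the lowest p among the partners (-1.93, SE 0.25, adjusted p = 0.000334 by limma). When any 1 library was left out, the lower counts at 8 Gy against 0 Gy ran from 6 to 13 for folding genes, 5 to 11 for partners, 3 to 9 for degradation genes and 2 to 4 for receptors. The higher counts ran from 0 to 1 for folding genes, 0 to 2 for degradation genes and 0 to 1 for receptors. The higher calls of P4ha1, Mmp9 and Lair1 were thus each lost without some library. Without both outlying libraries the 11 became 4, the 9 became 3 and the 7 became 4.

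Markers of the cell types of the lung were counted in the same comparisons. At 8 Gy against 0 Gy, where 16.1% of all genes were lower and 4.68% higher, 5 of 12 fibroblast markers were lower and 0 higher, among them Pdgfrb (-1.66 ± 0.19) and Mfap5 (-1.51 ± 0.23), 4 of 10 smooth muscle and pericyte markers, 1 of 10 endothelial markers (Cdh5, -0.60 ± 0.17), 7 of 10 alveolar type 1 markers and 2 of 6 mesothelial markers. Of 8 leukocyte markers 2 were higher (Itgam, 1.05 ± 0.22, and Csf1r, 0.58 ± 0.12) and 0 lower. The summed level of the fibroblast markers was 471 to 913 CPM at 0 Gy, 804 to 1298 CPM at 4 Gy and 432 to 701 CPM at 8 Gy. That of the smooth muscle and pericyte markers was 51.4 to 110.5, 74.0 to 147 and 30.1 to 64.5 CPM. The fibroblast count was 3 with quantile normalization, equal library medians or only the groups compared. When any 1 library was left out, the lower counts ran from 3 to 6 for fibroblast, 3 to 6 for smooth muscle and pericyte, 0 to 5 for endothelial, 4 to 8 for alveolar type 1 and 1 to 3 for mesothelial markers. No gene of these 6 marker lists was without reads in any library.

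The alveolar type 1 markers, from the epithelial cells that lie on the network of Col4a3 and Col4a4, summed to 210.4 to 606 CPM at 0 Gy, 813 to 1264 CPM at 4 Gy and 122 to 437 CPM at 8 Gy. Ager had -1.19 (SE 0.32, adjusted p = 0.0196 by limma) against 0 Gy and -2.92 (SE 0.32, adjusted p = 0.00016 by limma) against 4 Gy. At 8 Gy against 4 Gy, 10 of 10 alveolar type 1 markers, 9 of 10 endothelial, 8 of 10 smooth muscle and pericyte, 8 of 12 fibroblast and 0 of 6 mesothelial markers were lower, and 4 of 8 leukocyte markers were higher, beside 17.2% lower and 17% higher over all genes. Without both outlying libraries the leukocyte count was 1, and it was 2 with no filter. The endothelial sum was 183 to 576 CPM at 0 Gy, 446 to 846 CPM at 4 Gy and 170.3 to 342 CPM at 8 Gy, the mesothelial sum 1101 to 2088, 955 to 1355 and 919.8 to 1634 CPM, and the leukocyte sum 704 to 1687, 854 to 1409 and 1126 to 1859 CPM. At 4 Gy against 0 Gy, 6 alveolar type 1, 6 endothelial, 5 fibroblast and 3 smooth muscle markers were higher and 3 fibroblast markers lower, beside 5.33% higher and 12.2% lower over all genes. Without both outlying libraries these counts were 1, 0, 0 and 0 higher and 0 lower. The part of these cells in the collagen values was not tested.

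Too low to test were 8 members, with means of 0.0239 to 0.371 CPM and no single value above 1.18 CPM. They were the fibrillar chains Col2a1 and Col11a1, known from cartilage, and the minor chains Col6a4, Col9a2, Col10a1, Col22a1, Col25a1 and Col26a1. Col10a1, a marker of hypertrophic cartilage, was at 0.32, 0.378 and 0.0207 CPM with IgG and 0.367 and 0.271 CPM with anti-PD-1 at 0 Gy and did not exceed 0.111 CPM at 4 or 8 Gy, near the worth of a few reads. Exons of 13 members, 10 of them tested, overlap those of another annotated gene, and use of strand was not given, so those reads cannot be told apart. The members tested are Col3a1, Col4a1, Col4a2, Col4a3, Col5a1, Col6a6, Col7a1, Col9a3, Col15a1 and Col20a1, and those not tested are Col6a4, Col10a1 and Col22a1. For Col3a1, Col7a1 and Col20a1 the overlapping gene is on the same strand, so strand would not part those reads.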

How the data were processed

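The authors deposited 1 table of CPM (read counts scaled to library size) for 30095 genes in 16 libraries. Per the submitters' processing notes STAR, Partek and the mm10 build were used. Tool versions, gene annotation, counting settings and use of strand were not given in the sources used here. The values carry an added 0.0001 CPM. Per the labels, libraries were made with an Illumina TruSeq kit from lung RNA. Whole reads came out for 57.9 to 63.8% of values under 100 reads (tolerance 0.02 reads), so no count test was run.

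Values of log2(CPM + 0.5) for the 17546 genes that reached 1 CPM in 2 or more libraries entered limma 3.58.1 (R 4.3.3; trend and robust options, 6 group means over all 16 libraries, no block), with Benjamini-Hochberg adjustment and a threshold of 0.05, and the script was tested on simulated data. Levels per kb use the longest coding transcript of GENCODE M21, whose spans matched all 42 members. Members and lists were chosen with earlier results of these data known. Always named were 12 members: Col1a1, Col1a2, Col3a1, Col4a1 to Col4a6, Col6a1, Col15a1 and Col18a1. Added to these were the 6 members with the lowest p in each direction of each comparison, and up to 4 genes of each other list; other members are named to account for the family. Alternatives were other scalings, filters, pseudocounts, models and libraries left out.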

Additional observations from a re-analysis of the deposited data

Results flagged for a closer look

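For Col4a3 the response to 4 Gy was called as different between the antibodies by a test of the difference itself, a call lost in most alternatives: the log2 fold change for 4 Gy against 0 Gy was 1.78 ± 0.64 with IgG and -1.50 ± 0.64 with anti-PD-1 (SE), a difference of -3.29 ± 0.91 (limma adjusted p = 0.0448). The call held in 5 of 23 alternatives, with limma adjusted p = 0.121 under the replicate block and 0.348 without both outlying libraries. Neither response was called on its own (limma adjusted p = 0.339 and 0.0758). The 4 Gy anti-PD-1 libraries with the lowest Col4a3, replicates 2 and 3, are those with the most genes without reads, 6086 and 5315, and the part of this in the difference was not tested.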

How the results depend on the processing

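The falls at 8 Gy against 0 Gy held best: 14 of 21 calls in all 25 alternatives, with counts of 16 to 25 when 1 library was left out. Against 4 Gy that range was 12 to 23, and for 4 Gy against 0 Gy it was 0 to 8, with 3 calls after equal library medians and 0 when only the groups compared were fitted or without both outlying libraries. For anti-PD-1 against IgG it was 0 to 3. Within IgG, leaving out 1 library gave 3 to 22 calls at 8 Gy against 0 Gy (9 with equal library medians) and 2 to 14 against 4 Gy. Within anti-PD-1 it gave 0 to 5 at 8 Gy against 0 Gy (6 with quantile normalization, 5 with a pseudocount of 1), 4 to 13 against 4 Gy (0 without both outlying libraries) and 1 to 13 at 4 Gy against 0 Gy (0 without both). At 4 Gy, anti-PD-1 against IgG gave 0 to 7, 2 with no filter and 0 without both. The Col4a3 interaction ran from -3.93 to -2.64 with 1 library left out, and was no longer called with no filter (-3.29), with a pseudocount of 0.1 (-3.44) or without both outlying libraries (-2.04).

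Whether numbers in the labels pair the libraries was not settled. Residuals of libraries with the same replicate number correlated at -0.546 to 0.442 (median -0.101, 36 pairs). Residuals within a group cancel out, which ties the correlations of its libraries to each other, so this check cannot exclude pairing. The labels also number the libraries within each dose, and that number differs from the replicate number in some groups and was not used. With the replicate block the counts were 21, 4, 16 and 0 in the 4 comparisons, 1 within anti-PD-1 at 8 Gy against 0 Gy, 4 within anti-PD-1 at 4 Gy against 0 Gy and 0 for the antibodies at 4 Gy, and the Col4a3 interaction was -3.33 (limma adjusted p = 0.121).

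Signs were followed for 34 members at 8 Gy against 0 Gy, 17 at 4 Gy against 0 Gy and 23 at 8 Gy against 4 Gy, and for the tested ratios. Among these, signs turned only for values that were not called. They include -0.23 for Col1a2 at 8 Gy against 4 Gy and 0.31 for Col4a3/Col4a1 at 4 Gy against 0 Gy. Without both outlying libraries the log2 fold changes at 8 Gy against 4 Gy were -0.032 for Col18a1, 0.10 for Col1a2 and 0.18 for Col3a1. The log2 ratio differences were then -0.24 (Col4a3/Col4a4, 8 Gy against 4 Gy; -0.13 with a pseudocount of 0.1), 0.021 and -0.026 (Col6a1/Col6a2, 4 Gy against 0 Gy and 8 Gy against 4 Gy), and 0.29 and -0.19 (Col4a1/Col1a1, likewise). Col4a6 at 4 Gy against 0 Gy was -0.0066 in the additive model. With 1 library left out, 4 Gy against 0 Gy ran from -0.38 to 0.081 for Col1a1, -0.050 to 0.22 for Col4a2, -0.18 to 0.46 for Col4a3 and -0.16 to 0.18 for Col4a6. At 8 Gy against 4 Gy it ran from -0.078 to 0.091 for Col18a1 and -0.30 to 0.022 for Col3a1. Ratios ran from -0.056 to 0.21 (Col4a3/Col4a4, 8 Gy against 4 Gy), -0.061 to 0.68 (Col4a3/Col4a1, 4 Gy against 0 Gy), -0.069 to 0.059 (Col6a1/Col6a2, 8 Gy against 0 Gy), and -0.082 to 0.29 and -0.20 to 0.16 (Col4a1/Col1a1, 8 Gy and 4 Gy against 0 Gy). Causes were not tested. Where a group is left with 1 library, that library is assumed to vary like the others. Without both outlying libraries the calls over all genes fell too, for 4 Gy against 0 Gy and for 8 Gy against 4 Gy. Members under 1 CPM rest on few reads.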
